A study of Mus musculus with 18 samples.

Results

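The genes described here were 8 markers of cholangiocytes, the cells that line the bile ducts, and of liver progenitor cells: Krt19, Krt7, Epcam, Sox9, Spp1, Prom1, Cd24a and Sox4. They were taken by gene symbol from a table of 54838 genes, in which each of the 8 symbols stood once, and were followed through all 18 mouse liver libraries. RNA-seq had been done on livers and liver tumours of C57BL/6 mice aged 36 weeks, either wild type (WT) or with a global knockout of the miR-181ab1 cluster (GKO), that is a deletion of the Mir181a-1 and Mir181b-1 genes in all tissues rather than in hepatocytes alone. The 6 groups of 3 libraries were compared. WT normal and GKO normal livers came from mice that had received no carcinogen, while WT non-tumours, GKO non-tumours, WT tumours and GKO tumours came from mice injected once with diethylnitrosamine (DEN), a liver carcinogen, at 25 mg/kg on postnatal day 12. Each library was bulk tissue, and the labels did not say which tumour and non-tumour came from the same mouse.

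In the normal liver, cholangiocytes and hepatocytes descend from a common bipotent progenitor, and the 8 genes are read as signs of the biliary and progenitor side of that division. Krt19 and Krt7 encode the keratins of duct epithelium, Epcam an epithelial adhesion molecule, Sox9 and Sox4 transcription factors that shape bile ducts during development, Spp1 the secreted phosphoprotein osteopontin, Prom1 the membrane protein CD133, and Cd24a a small glycosylated surface protein. None of the 8 is exclusive to ducts: mesothelial cells on the liver surface also carry Krt19 and Krt7, macrophages can secrete osteopontin, periportal hepatocytes can carry low SOX9, and SOX4 is found in mesenchymal cells.

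The products missing from GKO mice are shown first because a gene's link to them is read from a shared seed, bases 2 to 8 in capitals. Both mature sequences carried the same seed, and both are also made from the second Mir181a-2 and Mir181b-2 cluster, which the knockout leaves in place.
mmu-miR-181a-5p: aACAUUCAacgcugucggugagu
mmu-miR-181b-5p: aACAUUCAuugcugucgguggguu
They lie in RefSeq (GRCm38.p6) at chr1:137966468-137966490 and chr1:137966650-137966673, both on the plus strand. Matches to the seed were sought on the transcript strand in the longest annotated 3′ UTR of each member, as the words TGAATGT (7mer-m8), GAATGTA (7mer-A1) and TGAATGTA (8mer, which holds both of the others). No member held an 8mer and 2 of the 8 held a single 7mer, against 21.0% of 20982 genes with any of the 3 words and 5.28% with an 8mer. The site in Cd24a was a 7mer-m8 at chr10:43583028-43583034 (plus strand, mm10), starting at base 263 of a 3′ UTR of 1500 bases, and that in Spp1 was a 7mer-A1 at chr5:104441043-104441049 (plus strand, mm10), starting at base 425 of 432. The matching bases are in capitals.
Cd24a: tgtgatttcctTGAATGTggcttaggaaat
Spp1: aaatcttgtaacGAATGTAa
These are matches of letters in a transcript and were not tested as sites of repression. The listed genes Mir181a-1 and Mir181b-1 gave no check of the genotype labels, since they are shorter than most RNA-seq fragments. Mir181b-1 was listed at 0 in all 18 libraries and Mir181a-1 at 0 in 17, with 1 read in GKO tumour 3.

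Values are TPM, in which the read number of a gene is divided by its length and scaled to the same library total; they are per length and can be set beside each other between genes. Between 11925059 and 20751353 reads on genes stood behind each library, as recovered from the smallest steps of the TPM values. At that depth Krt7 rested on 3 reads or fewer in 4 libraries, Prom1 in 2, and Krt19, Epcam and Cd24a in 1 library each, so that a level near 0.1 TPM means a handful of reads. WT non-tumour 2 stood apart from the other libraries of its group. It correlated with WT normal livers at a mean Pearson's r of 0.905 over 11897 genes and with WT tumours at 0.884, whereas WT non-tumours 1 and 3 were at 0.963 and 0.954 with the normal livers and at 0.866 and 0.873 with the tumours. Its 25 further bile duct genes, listed with the results for tumours, summed to 4330 TPM, against 903 and 1019 TPM in WT non-tumours 1 and 3 and 1829 to 2503 TPM in WT tumours. Most of the 4330 TPM came from the keratins Krt8 (1921 TPM) and Krt18 (1580 TPM). In WT normal livers they were already at 224 to 272 TPM and 484 to 558 TPM, so the sum is not a measure of duct cells. Whether it held tumour tissue was not tested, and values of the WT non-tumours carry that doubt. Several of the members' differences are also given without it.

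Spp1 had by far the highest level of the 8 genes, and Sox9 and Sox4 came next. The lowest Spp1 value was 10.7 TPM, in WT tumour 3, and the highest 934 TPM, in GKO tumour 2. The median over the 18 libraries was 40.4 TPM for Spp1, 4.60 TPM for Sox9, 2.20 TPM for Sox4, 1.43 TPM for Epcam, 1.30 TPM for Cd24a, 0.793 TPM for Krt19, 0.199 TPM for Krt7 and 0.193 TPM for Prom1. GKO tumour 2 held the highest value of 5 members, namely Epcam, Sox9, Spp1, Cd24a and Sox4, and the second highest of Krt19 and Krt7.

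**Figure D1:**
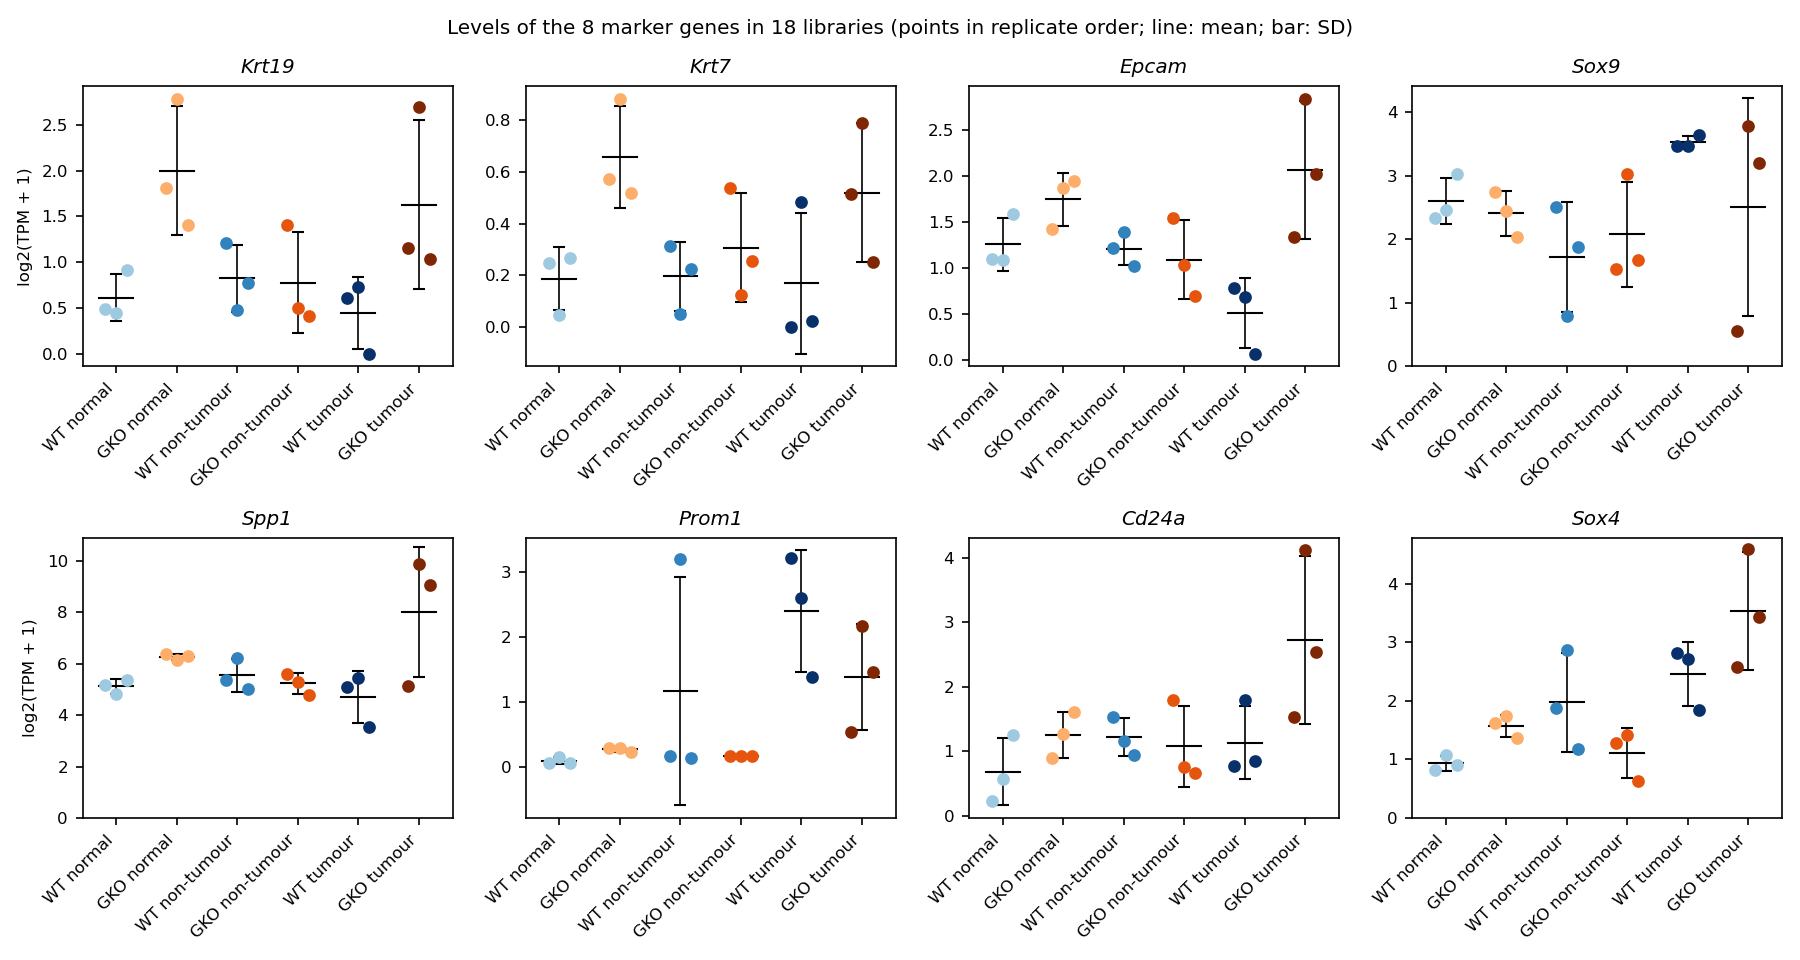
Levels of the 8 genes as log2(TPM + 1), each panel with its own vertical scale, for the 6 groups of 3 libraries; points are libraries in replicate order, lines are means and bars SD. GKO tumour 2 is the highest or second highest point for 7 genes, Sox9 is high in the 3 WT tumours, and WT non-tumour 2 stands with the tumours for Prom1.

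When the 6 groups were ordered by mean TPM, neighbouring groups overlapped at every step for 7 of the 8 genes. Prom1 was the exception, with a gap between GKO tumours and GKO normal livers, one between GKO normal livers and GKO non-tumours, and one between GKO non-tumours and WT normal livers. For Spp1 even the groups with the highest and lowest means overlapped, with GKO tumours from 34.0 TPM and WT tumours up to 42.0 TPM. The differences below were tested by comparison with limma on log2(TPM + 1), with p-values adjusted over all genes tested. Genes entered a comparison at a mean of 0.5 TPM or more, which Krt7 never reached.

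The first question was whether tumours of WT mice carry more of these markers than the DEN-treated liver around them. Sox9 was the one member that stood above the non-tumours in all 3 WT tumours. It was at 10.0, 10.1 and 11.5 TPM in WT tumours 1 to 3 and at 4.68, 0.740 and 2.66 TPM in the non-tumours. The log2 fold change was 1.80 ± 0.42 (SE), 3.48-fold on the TPM + 1 scale, with an adjusted p of 0.0671, so it did not pass the threshold of 0.05. WT non-tumour 2 held the lowest Sox9 of that group: without it the difference was smaller, at 1.34, yet adjusted p was 0.0437.

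The cell surface and keratin genes did not follow Sox9. Epcam was at 0.716, 0.610 and 0.0516 TPM in the WT tumours and at 1.33, 1.62 and 1.03 TPM in the non-tumours, so the groups did not overlap and the tumours were the lower ones. Its log2 difference was -0.70 ± 0.26 (SE), with an adjusted p of 0.208, and -0.61 with 0.272 without WT non-tumour 2. Krt19 was at 0.522, 0.656 and 0 TPM in the WT tumours, the last from 0 reads, against 1.31, 0.396 and 0.709 TPM, a difference of -0.38 ± 0.30 (SE), or -0.55 without WT non-tumour 2. Spp1 was likewise low in WT tumour 3, at 10.7 TPM beside 33.5 and 42.0 TPM in WT tumours 1 and 2.

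Among the WT libraries, Prom1 was high in the tumours and in a single liver. It was at 8.35, 5.04 and 1.59 TPM in WT tumours and at 8.21 TPM in WT non-tumour 2, but at 0.119 and 0.0999 TPM in WT non-tumours 1 and 3. All 6 livers of untreated mice were at 0.225 TPM or less. The WT tumour difference in Prom1 was 1.23 ± 0.89 (SE) with adjusted p = 0.507, and WT non-tumour 2 lies inside the tumour range. Without that library the difference was 2.25, with an adjusted p of 0.0779.

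Of the 7 members tested in this comparison 0 were called by limma or by voom on recovered reads, against 4.23% of all 14003 genes tested. At an unadjusted p under 0.05 there were 2 of 7 (19.9% of all genes), and 2 of 7 did not overlap between the groups (24.8% of all genes). The members' median log2 difference was -0.08, beside -0.02 over all genes. These shares are near the background.

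The same question in GKO mice gave the 1 call among the members. Sox4 rose in GKO tumours to 5.01, 23.2 and 9.78 TPM, from 1.44, 1.68 and 0.543 TPM in GKO non-tumours. Every tumour was above every non-tumour, and the log2 fold change was 2.43 ± 0.49 (SE), 5.38-fold on the TPM + 1 scale, with a limma adjusted p of 0.0252. Over all 14092 genes tested 11.7% were called and 7.75% were called as higher, so 1 call among 7 members is close to the background. The call ended without GKO tumour 3 (adjusted p = 0.0756), without GKO non-tumour 2 (0.0610) or 3 (0.101), and when genes of any level were tested (0.0726).

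Spp1 had the largest SD in TPM of any member in any group, 451 TPM in GKO tumours. It was at 34.0 TPM in GKO tumour 1, at 934 TPM in GKO tumour 2 and at 536 TPM in GKO tumour 3, while GKO non-tumours were at 47.7, 38.1 and 26.9 TPM. In reads these were 517, 12589 and 7253 against 616, 492 and 357. GKO tumour 1 was therefore inside the non-tumour range and the other two far above it, and the log2 fold change of 2.79 ± 1.10 (SE) had an adjusted p of 0.134. With GKO tumour 1 left out, the fold change was 4.24 and the limma adjusted p 0.00617. Leaving out each library of the comparison in turn gave fold changes from 1.87 to 4.24 and adjusted p from 0.00617 to 0.309.

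GKO tumour 1 was also the lowest of the 3 GKO tumours in Epcam, Sox9, Prom1, Cd24a and Sox4. Epcam was at 1.53, 6.13 and 3.05 TPM in GKO tumours 1 to 3, Cd24a at 1.89, 16.3 and 4.82 TPM, and Sox9 at 0.471, 12.7 and 8.19 TPM. The Sox9 value of GKO tumour 1 was the lowest of all 18 libraries, and rested on 18 reads. Prom1 was at 0.453, 3.49 and 1.75 TPM in the GKO tumours and at 0.121 to 0.125 TPM in the non-tumours. Its log2 difference was 1.22 ± 0.39 (SE), with a limma adjusted p of 0.0813. Without GKO tumour 1 the difference was 1.65 with 0.0211. Over all omissions of 1 library it ran from 0.83 to 1.65, with adjusted p from 0.0211 to 0.207. All 7 members tested had a positive difference, with a median of 1.22 beside 0.20 over all genes, and 5 of 7 had an unadjusted p under 0.05 (31.7% of all genes) and 2 of 7 did not overlap between the groups (38.3% of all genes).

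**Figure D2:**
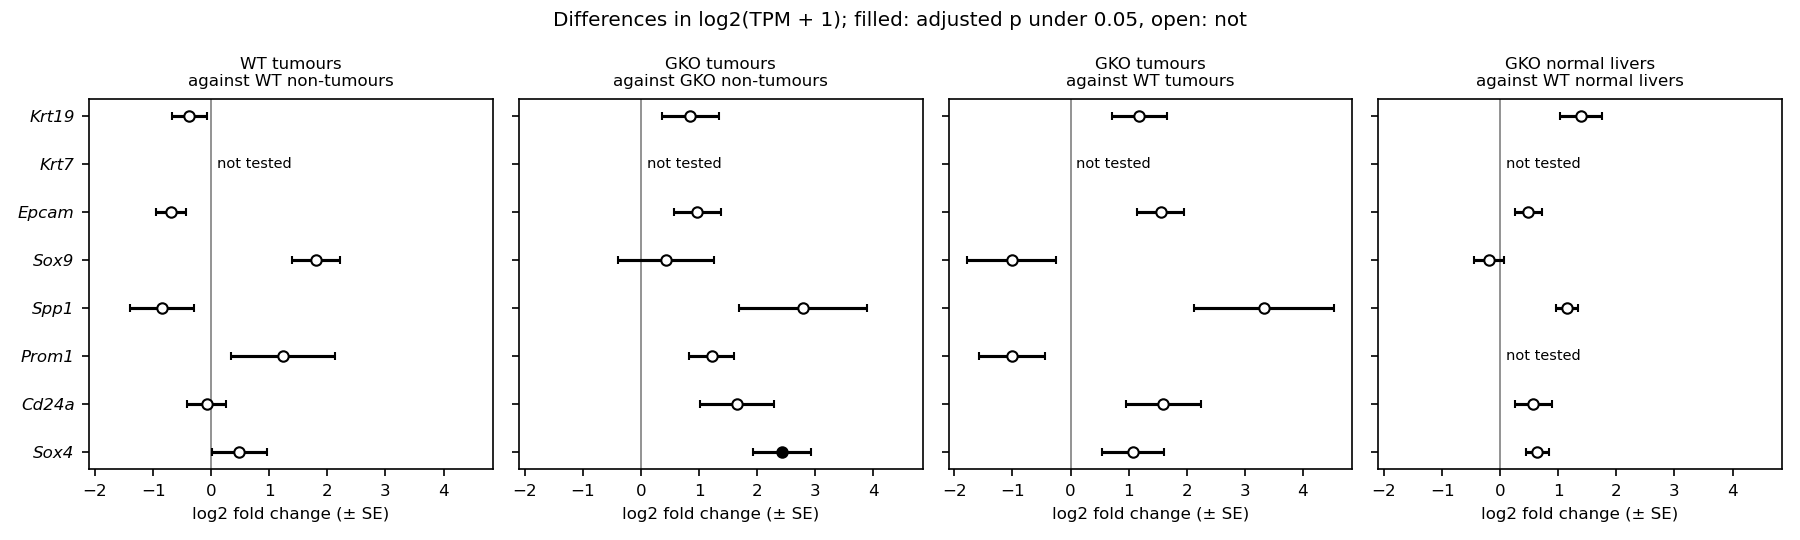
Differences of the members on the log2(TPM + 1) scale with their SE, in 4 comparisons of 3 against 3 libraries; filled points have an adjusted p under 0.05 and open points do not. Sox4 in GKO tumours against GKO non-tumours is the single filled point, and Krt7 was below the level for testing in each panel.

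Bulk tissue cannot tell more cells of a type from more RNA per cell, so the other genes of the duct and the markers of other cells are given beside these values. Of a list of 25 further bile duct genes, 19 were measured well enough in GKO tumours and non-tumours, and 5 of these rose, with 0 lower. Over all genes tested 7.75% were called as higher in that comparison. The median difference of the list was 0.83, beside 0.20 over all genes. The largest rises were in Ddr1, a collagen receptor (3.51, adjusted p = 0.00406), Krt23, a keratin (3.51, adjusted p = 0.0148), and Cdh1, the epithelial adhesion protein E-cadherin (3.34, adjusted p = 0.00406). Some duct genes of the list were near 0 throughout. Cftr, the chloride channel of duct cells, reached at most 0.157 TPM in any library, Sctr, the secretin receptor, 0.292 TPM, and Ggt1 0.508 TPM. Other transport genes of the list were not, with highest values of 53.4 TPM for Aqp1, 10.1 TPM for Slc4a2 and 9.23 TPM for Slc10a2. In WT tumours 1 of 17 duct genes rose, the tetraspanin Tspan8 (4.34, adjusted p = 0.0130), where 4.23% of all genes were called in either direction.

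Among 15 other progenitor and oncofetal genes, 8 were tested in GKO mice and 5 rose in GKO tumours. The shares over all genes were again 7.75% called as higher in GKO tumours and 4.23% called in either direction in WT tumours. They included the imprinted RNA H19 (8.60, adjusted p = 0.00417), Afp, the fetal liver serum protein (3.42, adjusted p = 0.0165), and Tnfrsf12a, the receptor of TWEAK (3.21, adjusted p = 0.00506). In WT tumours 3 of 9 rose, namely Afp (8.33, adjusted p = 0.0264), Gpc3, a membrane proteoglycan (6.93, adjusted p = 0.000864), and Igdcc4 (2.48, adjusted p = 0.00487). Afp and Igdcc4 were called in both genotypes. The difference between this list and the 8 members was not tested.

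Pathways that instruct the biliary fate were counted in the same way. They stand beside 7.75% of all genes called as higher in GKO tumours and 4.23% called in either direction in WT tumours. Of the Notch pathway, 4 of 11 genes rose in GKO tumours, with Dll4, a ligand, at 1.61 (adjusted p = 0.0120), Nrarp, a feedback inhibitor, at 1.39 (adjusted p = 0.0373) and Notch3, a receptor, at 1.17 (adjusted p = 0.0417). Under the 15 alternatives run for this comparison, leaving out libraries included, the Notch count ran from 0 to 5, that of the YAP and TEAD pathway from 0 to 5, that of the duct genes from 2 to 7 and that of the progenitor and oncofetal genes from 3 to 6. Of the YAP and TEAD pathway, 2 of 14 rose, the scaffold Ajuba (1.91, adjusted p = 0.0135) and the coactivator Wwtr1 (1.36, adjusted p = 0.0198). Among 7 receptors of osteopontin 1 rose, the integrin subunit Itgb5 (1.25, adjusted p = 0.0153). Counts of 2 of 14 and 1 of 7 are close to the share over all genes. In WT tumours 0 of 11 Notch genes, 2 of 12 YAP and TEAD genes (Tead4 at 1.55, adjusted p = 0.0185, and the secreted matricellular protein gene Ctgf at 1.36, adjusted p = 0.0265) and 0 of 6 osteopontin receptors were called. Over the 16 alternatives run in WT mice the count of genes that rose was 0 to 3 for the Notch pathway, 0 to 2 for the YAP and TEAD pathway, 0 to 3 for the duct genes and 2 to 6 for the progenitor and oncofetal genes. Without WT non-tumour 2 they were 1, 2, 3 and 3. The difference between the genotypes in these counts was not tested.

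Markers of other cells differed in both directions between GKO tumours and non-tumours. Over all genes 11.7% were called there and 7.75% as higher, and 4.23% were called in WT tumours against WT non-tumours. Of 10 fibroblast and stellate cell genes 4 rose, including Col1a1 (4.33, adjusted p = 0.00406), Col3a1 (3.44, adjusted p = 0.00406) and Col1a2 (2.62, adjusted p = 0.00828), and Dcn fell by 1.96 on the log2 scale (adjusted p = 0.0342). Of the 10 genes 4 had a positive difference, and the median was -0.24, beside 0.20 over all genes. The summed level of the 10 was 72.8 to 165 TPM in GKO tumours and 52.5 to 77.8 TPM in GKO non-tumours. Of 8 endothelial genes 2 rose, Pecam1 (1.68, adjusted p = 0.00882) and Cdh5 (1.52, adjusted p = 0.0197), a count that ran from 0 to 4 over the alternatives, and the sum of the 8 was 175 to 234 TPM in the tumours and 93.4 to 158 TPM in the non-tumours. Macrophage genes, which matter for Spp1, had 1 of 9 lower, the scavenger receptor Marco (-3.25, adjusted p = 0.0424), and 0 higher, with a sum of 117, 289 and 96.4 TPM in GKO tumours 1 to 3 against 790, 136 and 291 TPM in GKO non-tumours 1 to 3; the part of any of these cells in the members' levels was not tested. Of 10 hepatocyte genes Alb and Apoa1 rose, and 0 of 3 neutrophil, 0 of 3 mesothelial and 0 of 1 exocrine pancreas genes were called. In WT tumours Alb rose and Cyp2e1 fell among the hepatocyte genes and 0 genes of the other cell lists were called; without WT non-tumour 2, 0 hepatocyte genes rose and 1 fell, 3 of 9 macrophage genes were lower, 1 of 9 fibroblast and stellate cell genes was higher and 1 lower. In the remaining comparisons 0 genes of any list were called by limma.

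The effect of the knockout within tumours was the next question. Epcam and Krt19 were higher in each of the 3 GKO tumours than in any WT tumour. For Epcam the values were those above, 1.53 to 6.13 TPM against 0.0516 to 0.716 TPM, and the log2 difference was 1.55 ± 0.41 (SE), with adjusted p = 0.400. For Krt19 they were 1.23, 5.47 and 1.05 TPM in GKO tumours against 0.522, 0.656 and 0 TPM, with a difference of 1.18 ± 0.47 (SE) and adjusted p = 0.544. Epcam alone was called when the spread was estimated from all 18 libraries in one fit (adjusted p = 0.0368).

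The other members overlapped between WT and GKO tumours. Spp1 had the largest difference, 3.33 ± 1.21 (SE) with adjusted p = 0.520, with 2 of the 3 GKO tumours above all WT tumours and GKO tumour 1, at 34.0 TPM, between WT tumours 1 and 2. Cd24a and Sox4 differed by 1.60 ± 0.64 and 1.08 ± 0.53 (SE). Sox9 and Prom1 went the other way, at -1.01 ± 0.77 and -1.01 ± 0.57 (SE). Of the 7 members 0 were called by limma, beside 0.0215% of all 13964 genes, and 0 by voom on recovered reads. At an unadjusted p under 0.05 there were 4 of 7 members (Krt19, Epcam, Spp1 and Cd24a), where 8.87% of all genes were, and 2 of 7 did not overlap, where 14.7% of all genes did not.

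Whether the tumour effect itself differed between the genotypes was tested as an interaction over the 12 libraries of DEN-treated mice. It was not called for any member, against 0.0142% of all genes called, and by voom on recovered reads the count was also 0. The estimates, GKO effect minus WT effect, were 3.64 ± 1.39 (SE) for Spp1, 1.94 ± 0.75 for Sox4, 1.74 ± 0.79 for Cd24a, 1.67 ± 0.51 for Epcam and 1.23 ± 0.62 for Krt19. For Sox9 the estimate was -1.37 ± 1.04 and for Prom1 -0.01 ± 1.07. At an unadjusted p under 0.05 there were 3 of 7 members, Epcam, Spp1 and Sox4, beside 10.5% of all genes, and the lowest adjusted p among the members was 0.417. The median of all genes in this comparison was 0.23, so the estimates stand 0.23 closer to 0, or for Sox9 and Prom1 further below it, when taken relative to all genes. Without WT non-tumour 2 the estimate was 3.29 for Spp1, 1.496 for Sox4, 1.58 for Epcam, 1.76 for Cd24a, 1.40 for Krt19, -0.90 for Sox9 and -1.03 for Prom1.

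In mice never given DEN, the knockout livers had more keratin and more osteopontin RNA in each library. Krt19 was at 2.51, 5.89 and 1.65 TPM in GKO normal livers and at 0.397, 0.364 and 0.878 TPM in WT normal livers, a log2 difference of 1.39 ± 0.36 (SE). Spp1 was at 81.9, 69.0 and 77.8 TPM against 35.3, 27.0 and 40.3 TPM, with a difference of 1.15 ± 0.19 (SE) and a narrow spread in both groups. Neither was called (adjusted p = 0.999 for Krt19 and 0.668 for Spp1).

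Sox4, Krt7 and Prom1 were likewise higher in every GKO normal liver than in any WT one. Sox4 was at 2.07, 2.33 and 1.57 TPM in GKO normal livers against 0.768, 1.10 and 0.879 TPM, with a difference of 0.64 ± 0.20 (SE). Krt7 was at 0.486, 0.845 and 0.433 TPM against 0.188, 0.0319 and 0.204 TPM, and Prom1 at 0.222, 0.225 and 0.164 TPM against 0.0411, 0.110 and 0.0401 TPM, both too low to be tested. So 3 of the 6 members tested, and both untested ones, did not overlap and were higher in GKO, where 7.95% of all 13099 genes tested did not overlap in either direction and 6.23% were the higher ones. Epcam and Cd24a overlapped between the genotypes. Sox9 overlapped too, with the lower mean in GKO (-0.20 ± 0.26, SE), at 5.68, 4.47 and 3.10 TPM against 4.02, 4.52 and 7.11 TPM. By limma 0 of the 6 were called, as of all genes (0%), while 3 of 6 had an unadjusted p under 0.05 (3.96% of all genes), and voom on recovered reads called 0.

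As a sum, mesothelial genes, like the keratins, were higher in every GKO normal liver than in any WT normal liver. Msln, mesothelin, the defining gene of the list, was at 7.52, 5.11 and 4.001 TPM in GKO normal livers and at 0.697, 0.106 and 0 TPM in WT normal livers. The sum of the 7 mesothelial genes was 10.4, 9.89 and 7.24 TPM in GKO normal livers against 1.26, 1.01 and 0.347 TPM, and 3 of the 7 reached 1 TPM in a GKO normal liver and 0 of the 7 in a WT one. Within each group the order differed from that of the keratins. WT normal 3 had the lowest sum but the highest Krt19 (0.878 TPM) and Krt7 (0.204 TPM) of its group. GKO normal 1 had the highest sum, while GKO normal 2 had the highest Krt19 and Krt7. Muc16 was at 0.0357 TPM or less in all 18 libraries. Outside the normal livers the sum was again high in WT non-tumour 1 (7.22 TPM), GKO non-tumour 1 (6.90 TPM), WT tumour 2 (6.92 TPM) and GKO tumour 1 (7.24 TPM), and at most 2.52 TPM in the other 8 libraries of DEN-treated mice. In 3 of those 4 the sum went with the highest Krt7 and Krt19 of their group, at 1.31, 1.65 and 0.656 TPM for Krt19; GKO tumour 1 was the exception, since the highest Krt19, 5.47 TPM, was in GKO tumour 2 at a mesothelial sum of 2.52 TPM. Fibroblast and stellate cell genes also summed to 64.6 to 88.9 TPM in GKO normal livers and 40.3 to 43.1 TPM in WT ones, and endothelial genes to 90.9 to 112 TPM against 52.8 to 56.7 TPM. Their part in the higher keratin and osteopontin levels was not tested.

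**Figure D3:**
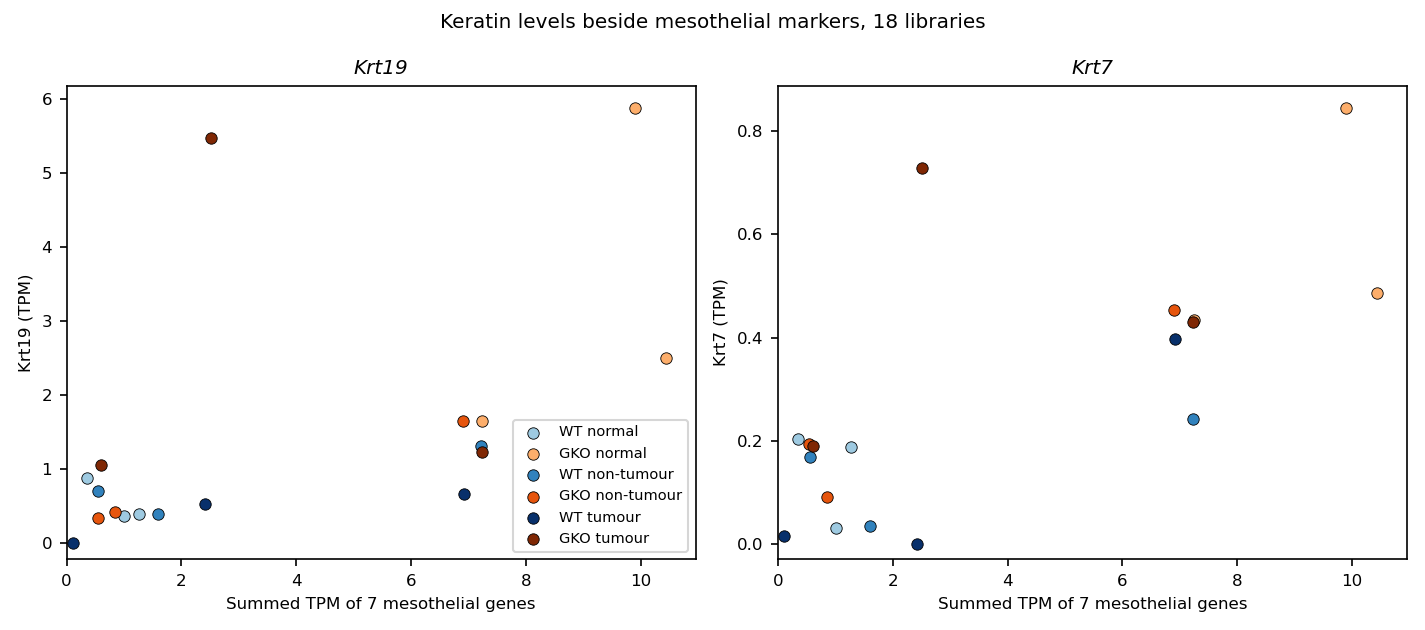
Krt19 (left) and Krt7 (right) in TPM against the summed TPM of 7 mesothelial genes, one point for each of 18 libraries coloured by group. The 3 GKO normal livers lie at sums of 7.24 to 10.4 TPM and the 3 WT normal livers at 1.26 TPM or less, while GKO tumour 2 has high keratin at a sum of 2.52 TPM.

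The comparison of DEN-treated livers outside tumours with untreated livers gave no call among the members. In WT mice Sox4 was at 2.67, 6.28 and 1.27 TPM in non-tumours and at 0.768 to 1.10 TPM in normal livers, so that the groups did not overlap, but the difference of 1.04 ± 0.40 (SE) had an adjusted p of 0.185, and the highest value was that of WT non-tumour 2; without it the difference was 0.59 with adjusted p = 0.239. The median of all genes was shifted by 0.32 in this comparison, 1 of 7 members had an unadjusted p under 0.05 (24.4% of all genes), 1 of 7 did not overlap (33.9% of all genes), and 0 were called by either tool, beside 0.00744% of all genes by limma.

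In GKO mice Spp1 was lower in non-tumours than in normal livers, at 47.7, 38.1 and 26.9 TPM against 81.9, 69.0 and 77.8 TPM. The log2 difference was -1.03 ± 0.25 (SE), with adjusted p = 0.737. Krt19 differed by -1.23 ± 0.41 (SE) and Epcam by -0.65 ± 0.28 (SE), both with overlap. Of the 6 members tested 0 were called by limma or voom (0% of all genes by limma), 3 had an unadjusted p under 0.05 (5.2% of all genes) and 1 did not overlap (8.73% of all genes). Their differences were positive for 0 of 6, with a median of -0.56, beside 65.0% positive and a median of 0.08 over all genes. Prom1, too low to be tested, did not overlap either, at 0.121 to 0.125 TPM in GKO non-tumours against 0.164 to 0.225 TPM. These values share the GKO normal livers with the comparison of normal livers, and the mesothelial sum was 7.24 to 10.4 TPM in the normal livers and 6.90, 0.848 and 0.546 TPM in GKO non-tumours 1 to 3; its part in these differences was not tested.

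Between WT and GKO non-tumours every member overlapped. The median over all genes was -0.15. Differences ran from -0.9996 ± 0.7896 (SE) for Prom1 to 0.35 ± 0.55 for Sox9. Without WT non-tumour 2 Prom1 was too low to be tested and the others ran from -0.42 for Sox4 to 0.036 for Spp1, with Sox9 at -0.11, Krt19 at -0.22, Cd24a at -0.17 and Epcam at -0.030. With all 6 libraries 0 of 7 had an unadjusted p under 0.05, where 5.8% of all genes did. By limma and by voom on recovered reads 0 were called, as of all genes (0%), and 13.2% of all genes did not overlap. Spp1 was at 47.7, 38.1 and 26.9 TPM in the GKO non-tumours and at 40.4, 74.2 and 31.5 TPM in the WT ones, the highest again being WT non-tumour 2.

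Whether the 8 genes vary together was asked in the 12 livers without tumour, using deviations of log2(TPM + 1) from group means. Of 28 pairs 18 were positive, with a median Pearson's r of 0.18, so the set did not move as one. Krt19 and Krt7 had the highest r, 0.91, with Spearman's rho = 0.83 and permutation p = 0.00309 (adjusted over 28 pairs, 0.0432) for r and 0.0100 (adjusted, 0.0936) for rho in a two-sided exact permutation within groups, and r = 0.80 without the 2 livers farthest from the median. Prom1 and Sox4 gave r = 0.80 and rho = 0.78, with exact permutation p = 0.00309 (adjusted, 0.0432) and 0.00463 (adjusted, 0.0936), but r was 0.18 without the 2 farthest livers, so this relation rests on those 2. Epcam and Cd24a had r = 0.88 and rho = 0.87, with exact permutation p = 0.00926 (adjusted, 0.0864) and 0.00694 (adjusted, 0.0936), and 0.82 without the 2 farthest, so by rho and without those livers this pair was closer than Krt19 and Krt7. Leaving out any 1 of the 12 livers left 0 of 28 pairs past the threshold. Fewer permutations are then possible, which limits how low p can go, so this loss alone does not show that the relations are weak.

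The r of Sox9 with the other 7 genes ran from -0.61, with Prom1, to 0.20, with Krt19, and none of these 7 pairs had a permutation p under 0.05; without the 2 farthest livers r was 0.58 with Krt19 and 0.28 with Krt7. Spp1 was at r = 0.64 with Epcam (exact permutation p = 0.0332, adjusted 0.232) and 0.80 with Sox4 (exact permutation p = 0.0833, adjusted 0.467), and both were weaker without the 2 farthest livers, at 0.48 and 0.44. With Krt19 it was at 0.04.

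**Figure D4:**
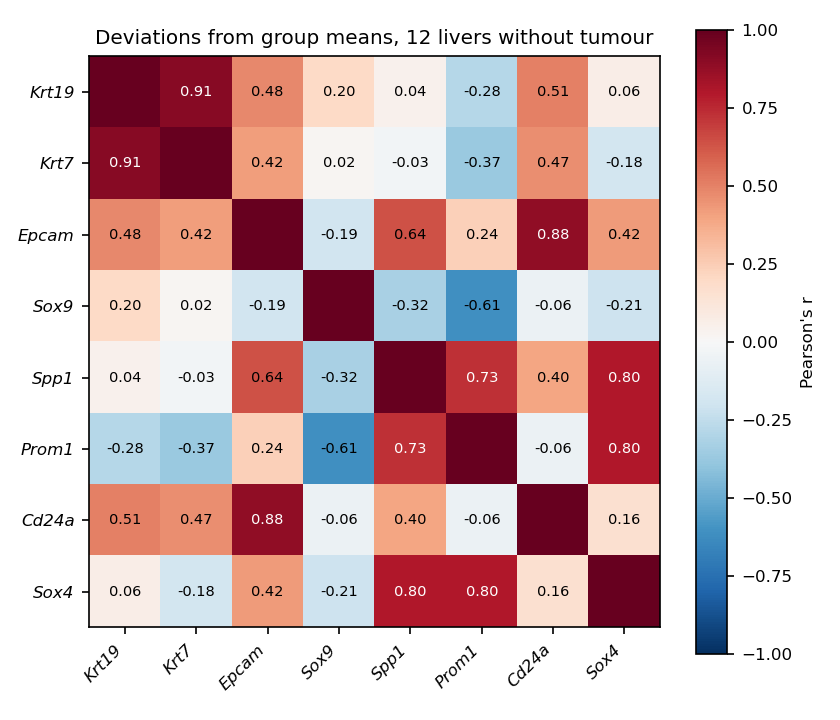
Pearson's r between the 8 genes over 12 livers without tumour, from deviations of log2(TPM + 1) from group means; red is positive and blue negative. Krt19 with Krt7 (0.91), Epcam with Cd24a (0.88) and Sox4 with Prom1 and Spp1 (both 0.80) are the darkest red squares, and the Sox9 row is mostly blue.

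The genes with the most similar pattern give each member a setting. They are described by Pearson's r of log2(TPM + 1) among genes at a mean of 1 TPM or more, over libraries that share depth and tissue make-up. Over the 18 libraries Sox4 ran with 3 collagens, Col1a2 (0.92), Col1a1 (0.92) and Col3a1 (0.92), and over the 12 livers without tumour Col1a1 was first (0.96). Krt19 and Krt7 both had Loxl1, a matrix cross-linking enzyme, among their nearest 3 over 18 libraries (0.84 and 0.91) and over the 12 livers (0.93 and 0.88). Epcam and Spp1 were each other's nearest gene over 18 libraries, at 0.87, and Bicc1, a duct RNA-binding protein, came next for Spp1 at 0.85.

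Sox9 and Prom1 had other neighbours. Over 18 libraries those of Sox9 were Fam20a (0.86), Ercc5 (0.83) and Id2 (0.83), a helix-loop-helix inhibitor, and over the 12 livers they included Egfl8 (0.91) and Id2 (0.91). Those of Prom1 were Insyn1 (0.97), Ly6d (0.96) and Ywhaz (0.94) over 18 libraries. Over the 12 livers Prom1's nearest 3, Mir6358, Sprr1a and Gpx2, all had r = 1.00 to 2 decimals, a line drawn by the single high value of WT non-tumour 2, and without that library they were Rarg (0.89), Gpr4 (0.87) and Sertad1 (0.86). Those of Cd24a were P3h4 (0.91), Postn (0.87) and Slc25a4 (0.87) over 18 libraries and Zfp235 (0.90), Map2k5 (0.85) and Gm4045 (0.84) over the 12 livers.

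The remaining neighbours over the 12 livers without tumour were Krt19 (0.95) and Akr1b8 (0.89) beside Loxl1 for Krt7, Igsf23 (0.86) and Timp2 (0.85) for Krt19, Rps27a-ps2, a pseudogene (0.80), Spp1 (0.78) and Eif3k (0.78) for Epcam, Pdzk1ip1 (0.94), S100a6 (0.88) and Rbm12 (0.84) for Spp1, and Acaca and Tpm4 (both 0.93) for Sox4. Without WT non-tumour 2, Msln was the third nearest to Spp1, at 0.87.

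Overlaps of the gene models bear on these counts. Krt7 (chr15:101411043-101430313, mm10) shares 77 exonic bases with Gm671, an antisense gene listed at up to 0.787 TPM, and Sox4 (chr13:28948919-28953713) shares 2616 with Gm26735 on the opposite strand, which was listed at 0 in all libraries. Prom1 (chr5:43993620-44102032) shares 424 bases with the antisense gene Gm16401, at up to 0.293 TPM, and Spp1 (chr5:104435118-104441050) shares 309 with Gm42793 on the same strand, at up to 0.0977 TPM. Where counting ignored strand, reads in bases shared with an antisense partner cannot be told apart, and strand does not separate Spp1 from Gm42793 in any case. How reads in shared bases were assigned is not given. A partner listed at 0 therefore does not show that the count of Sox4 was unaffected. Krt19 (chr11:100140810-100148665), Epcam (chr17:87635979-87651129), Sox9 (chr11:112782224-112787760) and Cd24a (chr10:43578284-43584265) overlap no other annotated gene.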

How the data were processed

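RNA-seq of 18 mouse livers and liver tumours was read from the deposited table of TPM values (reads per gene length, scaled to a fixed library total). Per the study's methods the authors aligned reads with STAR 2.7.3a to mm10 and counted genes with featureCounts 2.0.0; the annotation, the TPM calculation and strandedness are not given in the sources used here. Whole reads were recovered from TPM with GENCODE vM21 lengths (97.95 to 98.67% of values of up to 30 reads within 0.02 of a whole number).

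Differences in log2(TPM + 1) were tested with limma 3.58.1 (trend), 3 against 3 libraries, over genes at a mean of 0.5 TPM or more, and p-values were adjusted by the Benjamini-Hochberg method with calls under 0.05. On simulated data with 200 genes changed by 2 on the log2 scale, the test recovered 134 to 169 of them in the 7 comparisons of 2 groups. The changed genes were drawn from those at a mean log2(TPM + 1) over 2. That is above the median level of most members, so the recovery does not carry over to them. For mRNA levels in tumours and non-tumours the study gives 3 mice in each group; the labels tie no library to a mouse, so p-values measure the spread between libraries, which may be technical. Intervals for counting error were not added.

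Named were all members, the 3 genes most like each, and up to 3 called genes per list with the largest change. Members and lists were chosen with earlier results of these data known. No pair of libraries was identical. Equal replicate numbers deviated together only in GKO and WT tumours (r of 0.115, 0.130 and 0.216 over 11897 genes); this came from the data, not the labels. The alternatives tried were another pseudocount, filter, scaling, model and spread estimate, a replicate block, and leaving out libraries; their effect closes the text. The genes most like each member without WT non-tumour 2 were added after seeing the data. A few genes that the rule would name, and the calls of the B cell list, are not reported here.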

Additional observations from a re-analysis of the deposited data

How the results depend on the processing

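Counts of members called by comparison changed in 3 of 8 cases. In WT tumours against WT non-tumours it went from 0 to at most 1 (lowest 0) when 1 replicate was left out, Sox9 being called without WT non-tumour 2. In GKO tumours against GKO non-tumours the count of 1 became 0 with no filter, 4 with all 18 samples in one fit (Epcam, Spp1, Cd24a and Sox4) and between 0 and 3 with 1 replicate left out; it was 3 without GKO tumour 1 and 0 without GKO tumour 3, GKO non-tumour 2 or GKO non-tumour 3. In GKO tumours against WT tumours it was 1 with all 18 samples in one fit, Epcam. The cause was not tested. The 2 correlated pairs became 0 with a pseudocount of 0.1, 0 by Spearman's rho, 4 with group means left in and 0 to 0 with 1 liver left out, where fewer permutations limit p. The replicate block changed no count: 1 in GKO tumours against GKO non-tumours and 0 in each other comparison, GKO against WT tumours included.

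Among single members, signs turned in the following cases, none of them called. For GKO against WT non-tumours, median centring gave 0.12 for Krt19, 0.047 for Epcam and 0.025 for Cd24a, and for WT non-tumours against normal livers -0.17 for Krt19. Voom gave -0.033 for Sox9 in GKO tumours against non-tumours. Prom1's interaction was 0.23 with a pseudocount of 0.1, 0.16 by voom and 0.23 with WT tumours 1 and 2 averaged. With 1 replicate left out the ranges were -0.41 to 0.10 for Cd24a in WT tumours against non-tumours, -0.20 to 1.41 for Sox9 in GKO tumours against non-tumours, -0.36 to 0.012 for Sox9 in normal livers, -0.14 to 0.12 for Epcam in WT non-tumours against normal livers, -0.54 to 0.025 for Cd24a in the GKO ones and -1.03 to 0.50 for Prom1's interaction. For GKO against WT non-tumours they were -0.36 to 0.15 for Krt19, -0.35 to 0.078 for Epcam, -0.12 to 0.74 for Sox9, -0.57 to 0.036 for Spp1 and -0.50 to 0.066 for Cd24a. With 3 libraries a group and under 30 reads for many values of Krt7, Prom1 and Krt19, small differences in them were not detectable at this depth.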
